A study of Mus musculus with 48 samples.

Results

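The 44 genes described here act in DNA replication (21 genes) or in mitosis and cytokinesis (23 genes), and their mRNA levels follow cell division. They were chosen by name, and rows with all 44 symbols were found in each of the 48 RNA-seq count files, out of 34591 genes counted in any file. The replication members are Mcm2, Mcm3, Mcm4, Mcm5, Mcm6, Mcm7, Pcna, Rrm1, Rrm2, Tyms, Gins1, Gins2, Cdc6, Pola1, Prim1, Ccne1, Ccne2, E2f1, E2f2, Chek1 and Neil3. The mitosis members are Mki67, Top2a, Ccna2, Ccnb1, Ccnb2, Cdk1, Plk1, Aurka, Aurkb, Bub1, Bub1b, Cenpe, Cenpf, Kif11, Kif20a, Kif23, Kif2c, Tpx2, Birc5, Nusap1, Prc1, Ube2c and Cdc20.

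The study asked how loss of the histone methyltransferase Ezh2 and gain of the transcriptional repressor Gfi1 affect mouse Group 3 medulloblastoma, a cerebellar tumor of children. Cells overexpressing Myc were grown as tumorspheres, given retroviral vectors, sorted by fluorescence and implanted in Matrigel into the cerebral cortex of nude (CD-1 nu/nu) mice. The titles name tumors except in the Gfi1 OE and control libraries of line 19251, and total RNA was sequenced by a stranded paired-end protocol. In the first set, each of the p53-/-;p18-/- lines 19251, 19554 and 19568 had 3 Ezh2 KO libraries, with Ezh2 targeted by Cas9, and 3 Cas9 control libraries. In the second set, all from line 19568, there were 3 libraries each labelled Ezh2 KO + Ezh2 OE (a rescue arm, with Ezh2 expressed again in knockout cells), Ezh2 KO, Ezh2 OE and Cas9. Line 19251 also gave 8 libraries with Gfi1 overexpression (Gfi1 OE) and 6 controls of the same p53-/-;p18-/- genotype. The last 4 libraries are labelled WT GNP Myc Gfi1, for wild-type granule neuron precursors with Myc and Gfi1 overexpressed. All groups share the overexpressed Myc, and the hosts keep their own brain, vessel and some immune cells, so host RNA can enter a tumor library. The labels do not say that replicates came from separate animals, so p-values measure only the spread between these libraries.

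Replication genes are transcribed mainly at the G1/S transition, when E2F factors activate licensing genes (the Mcm2 to Mcm7 helicase, Cdc6), the clamp Pcna, polymerase alpha with its primase (Pola1, Prim1) and enzymes of nucleotide supply (Rrm1, Rrm2, Tyms). Mitosis genes peak later, in G2 and M phase, when B-Myb and Foxm1 bind to the MuvB complex at a promoter element called the cell cycle genes homology region (CHR), often near CCAAT boxes bound by NF-Y. Myc promotes entry into S phase, and p18 (Cdkn2c), deleted in all groups but the wild-type one, is an inhibitor of the cyclin D kinases that act upstream of E2F.

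Promoter windows of 250 bases before to 50 bases after the annotated start were taken from RefSeq (mouse build GRCm38.p6, whereas the counts were made on mm9), and 36 of the 44 members had one. A gene with several annotated starts was counted once, with a match if any of its windows held one. There was no entry for Gins1, Kif20a, Ccna2, Mcm4, Tpx2, Ccne2, Aurkb and Gins2. A CHR match (TTTGAA or TTCGAA, either strand) was present in 15 of 19 mitosis genes (78.9%) and in 4 of 17 replication genes (23.5%), against 21.7% of 27025 gene symbols. An E2F match (TTTCCCGC, TTTCGCGC, TTTGCCGC or TTTGGCGC, either strand) was present in 1 of 19 mitosis genes (5.26%) and in 7 of 17 replication genes (41.2%), against 2.6% of gene symbols. The CCAAT letters, on either strand, occurred in 16 of 19 mitosis genes (84.2%) and 11 of 17 replication genes (64.7%), against 41.1% of gene symbols. Overlapping matches were each counted, and a match describes the letters only, not binding.

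Part of each window is shown for 4 mitosis members, 3 replication members with E2F matches, and E2f2 and Neil3, replication members with a CHR match that were called in several comparisons below. For E2f2 the window of the start with the CHR match is shown, and the window of its other start held an E2F match, TTTGGCGC, 40 bases after that start. The Ccnb2 window held another CHR match, TTTGAA, 5 bases after the start and outside the part shown. Capitals mark CHR matches in Ccnb2, Kif2c, Prc1, Cdk1, E2f2 and Neil3 and E2F matches in Mcm6, Mcm5 and Cdc6, and each sequence is written 5′ to 3′ on the gene's own strand.
Ccnb2 (chr9:70421555-70421734, minus strand): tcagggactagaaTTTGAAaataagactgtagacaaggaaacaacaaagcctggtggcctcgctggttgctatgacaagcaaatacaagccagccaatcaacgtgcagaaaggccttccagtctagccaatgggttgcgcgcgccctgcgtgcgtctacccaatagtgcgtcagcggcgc
Kif2c (chr4:117178773-117178892, minus strand): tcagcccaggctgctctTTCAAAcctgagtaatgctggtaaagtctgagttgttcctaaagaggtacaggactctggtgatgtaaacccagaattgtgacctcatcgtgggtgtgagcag
Prc1 (chr7:80294396-80294475, plus strand): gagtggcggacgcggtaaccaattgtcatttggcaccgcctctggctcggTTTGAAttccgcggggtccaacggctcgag
Cdk1 (chr10:69352913-69353012, minus strand): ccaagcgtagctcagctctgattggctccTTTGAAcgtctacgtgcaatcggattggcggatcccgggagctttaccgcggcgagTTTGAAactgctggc
Mcm6 (chr1:128359706-128359835, minus strand): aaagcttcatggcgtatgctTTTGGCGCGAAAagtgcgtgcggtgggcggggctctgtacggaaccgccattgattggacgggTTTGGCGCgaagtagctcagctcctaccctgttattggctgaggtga
Mcm5 (chr8:75109339-75109508, plus strand): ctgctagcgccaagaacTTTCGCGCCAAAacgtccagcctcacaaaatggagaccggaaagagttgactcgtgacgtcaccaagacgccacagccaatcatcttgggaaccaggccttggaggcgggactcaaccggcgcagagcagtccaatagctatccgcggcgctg
Cdc6 (chr11:98908001-98908150, plus strand): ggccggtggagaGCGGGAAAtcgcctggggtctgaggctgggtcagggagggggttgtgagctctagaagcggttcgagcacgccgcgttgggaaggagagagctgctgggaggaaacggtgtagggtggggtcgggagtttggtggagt
E2f2 (chr4:136180722-136180781, plus strand): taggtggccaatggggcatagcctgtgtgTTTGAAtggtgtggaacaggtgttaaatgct
Neil3 (chr8:53639066-53639285, minus strand): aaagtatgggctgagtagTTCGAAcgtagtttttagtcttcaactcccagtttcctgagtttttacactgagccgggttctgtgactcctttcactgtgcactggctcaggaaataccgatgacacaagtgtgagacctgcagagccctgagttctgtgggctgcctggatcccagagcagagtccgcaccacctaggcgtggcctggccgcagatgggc

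The libraries held 2687641 to 94733334 counts in genes, with a median of 29416586, and levels are given as counts-per-million values (CPM) of this total. A library's level of a list is the mean of log2(CPM + 1) over its genes, so differences between such levels are on a log2 scale. One library stood apart, the first Cas9 control replicate of line 19251 in set 1, called the host-rich library here. Its members had a mean level of 1.69, against 5.41 to 7.11 in the other 47 libraries, and 43 of the 44 were lower there than in any other library. The 44 genes together took 0.0164% of its counts, against 0.296% to 0.901% elsewhere. Its Myc level was 9.91 CPM, and its host brain markers (lists for neurons, astrocytes, oligodendrocytes, microglia, endothelium and pericytes) summed to 9287 CPM, against 545 to 3798 CPM in the other 47 libraries. In bulk RNA, fewer tumor cells and less RNA per cell cannot be told apart. Results that use this library are given with and without it.

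Levels of Ezh2 and Gfi1 mRNA were set beside the labels, with mixed results. An mRNA level does not show whether Cas9 disrupted the gene, so an overlap of knockout and control arms does not test the knockout. In set 1, Ezh2 mRNA of line 19568 was 44.3, 38 and 48.7 CPM in Ezh2 KO and 68, 72.1 and 83.4 CPM in Cas9, without overlap. In line 19251 it was 71.4, 74.7 and 39.8 CPM in Ezh2 KO and 88.2 and 72.6 CPM in Cas9 (32.8 CPM in the host-rich library), and in line 19554 it was 79.1, 65.3 and 77.8 CPM in Ezh2 KO and 78.4, 83 and 64.2 CPM in Cas9. The arms of these lines overlapped. In set 2, Ezh2 was 5037 and 6576 CPM in the rescue arm and 46.8, 51.4 and 55.7 CPM in Ezh2 KO. It was 2526, 1804 and 2100 CPM in Ezh2 OE and 91.9 and 93.5 CPM in Cas9. A library labelled Cas9 (replicate 1, 5128 CPM of Ezh2) and a library labelled Ezh2 KO + Ezh2 OE (replicate 3, 101 CPM) carried title numbers that disagree with those of their files. Neither library entered a set 2 comparison. Gfi1 was 107 to 592 CPM in Gfi1 OE libraries and 0 to 0.273 CPM in their controls. WT GNP Myc Gfi1 libraries had 0.232 to 0.829 CPM of Gfi1, so the overexpression in their label was not seen in the counts.

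**Figure D1:**
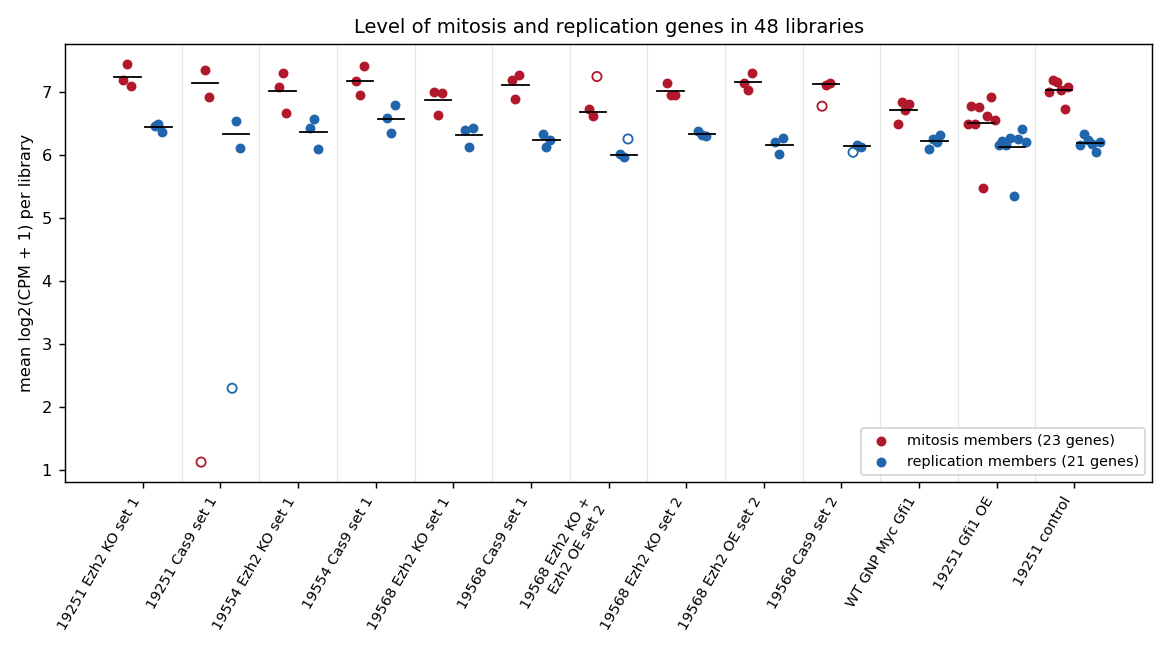
Mean log2(CPM + 1) of the 23 mitosis and the 21 replication genes in each of the 48 libraries, by group, with bars at group means and open circles for the host-rich library and the 2 set 2 libraries of uncertain label, which the bars leave out. The first Cas9 library of line 19251 lies at 1.13 (mitosis) and 2.30 (replication), and the fifth Gfi1 OE library at 5.47 and 5.35 is the lowest of the other 47.

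The median library level of the 44 genes was 6.64 over all 48 libraries. Over 45 libraries in 13 groups, without the host-rich library and 2 libraries of uncertain label, the median spread between replicates was an SD of 0.32 on the log2(CPM + 1) scale. Group means of a few genes spanned far more than this. Neil3, a DNA glycosylase that repairs crosslinks met by replication forks, ranged from 0.488 to 55.2 CPM, and its group means spanned 4.47 log2 units. Ccnb2, the B2 cyclin that activates Cdk1, ranged from 2.37 to 74.2 CPM with a span of 3.83. Ccne1, the E1 cyclin that drives Cdk2 at the start of S phase, ranged from 12.8 to 109 CPM with a span of 2.10. The spans were 1.87 for E2f2, 1.66 for Cdc20 and 1.64 for E2f1, and no other member spanned more than 1.34. Counts on the same strand or another strand of an overlapping gene could enter some members, since the strand setting of the counting is not given in the sources used here. Protein-coding neighbours overlap Ccna2, Aurka, Kif20a, Nusap1, Prc1, Cdc20, Mcm7, Gins2, Ccne2 and E2f1, and values of these genes carry that uncertainty.

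**Figure D2:**
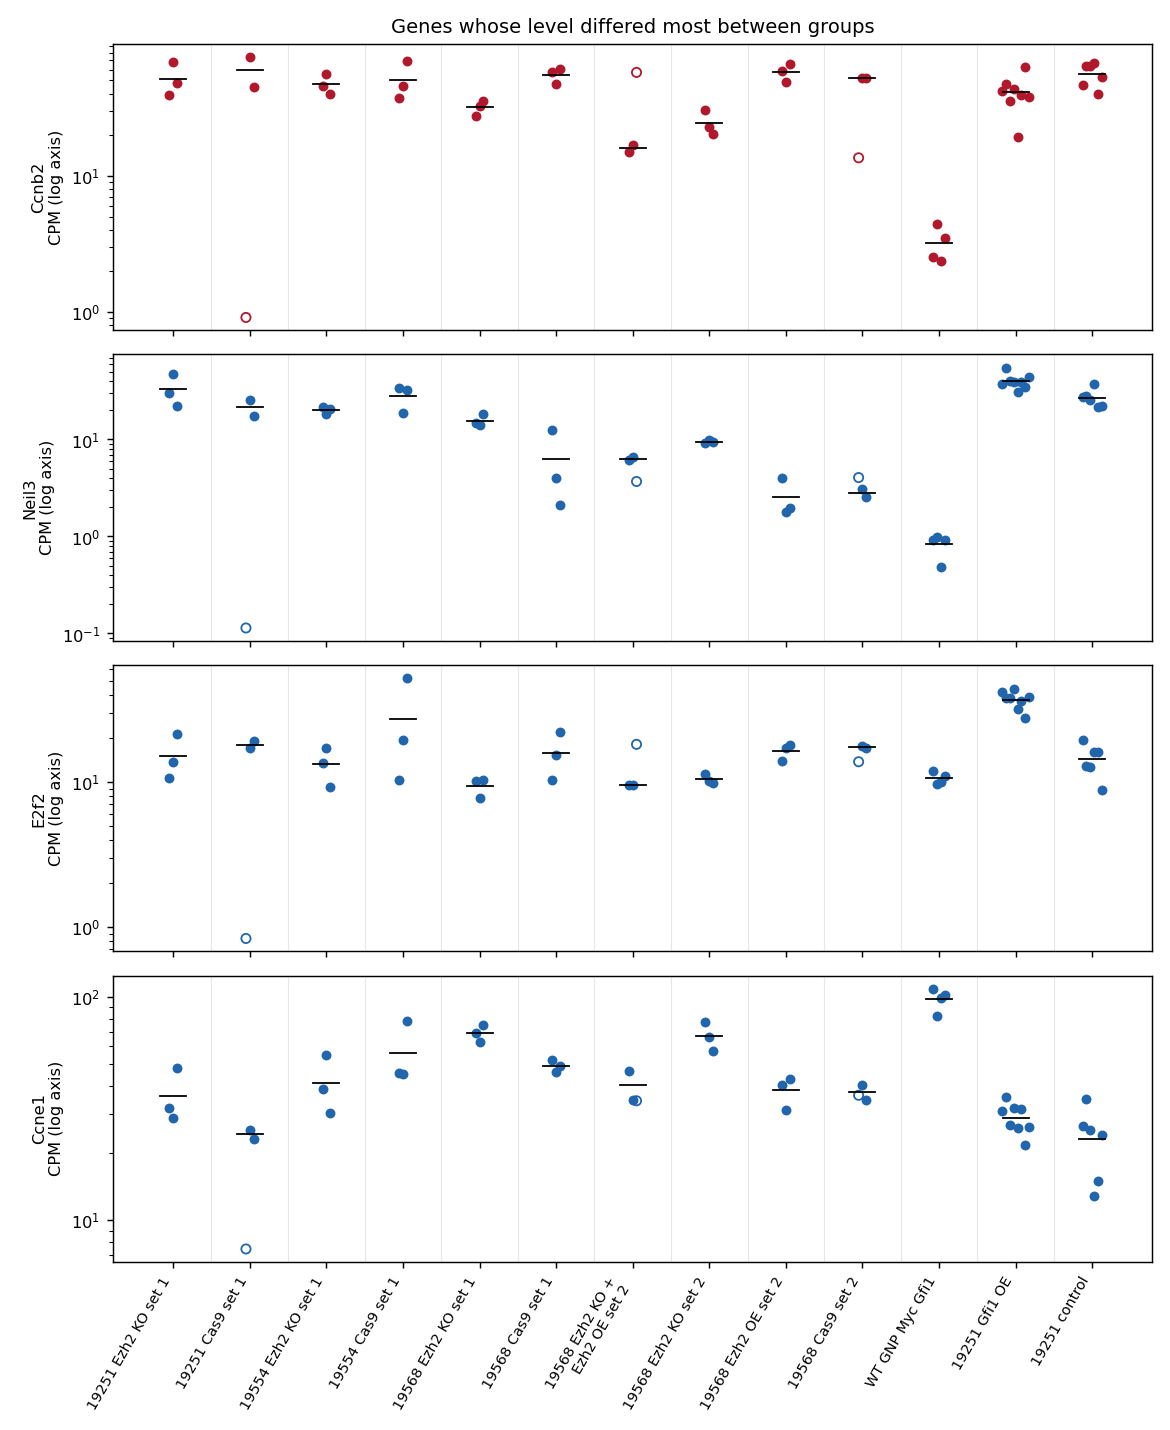
CPM of Ccnb2, Neil3, Ccne1 and E2f2 in each library, by group, on log axes, with bars at group means and open circles for the host-rich library and the 2 set 2 libraries of uncertain label, which the bars leave out. Ccnb2 lies between 2.37 and 4.42 CPM and Neil3 between 0.488 and 0.997 CPM in WT GNP Myc Gfi1 libraries, and E2f2 between 27.6 and 43.8 CPM in Gfi1 OE libraries.

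Gfi1 overexpression in line 19251 was compared with controls of the same line to ask whether it changes proliferation genes. Mitosis genes were lower in Gfi1 OE libraries: 8 of 23 were called lower and 0 higher, with a median log2 fold change of -0.38. Replication genes moved in both directions, with 3 called higher, 1 called lower and a median of 0.01. A gene was called at an adjusted p under 0.05 in edgeR's quasi-likelihood test, with Benjamini-Hochberg adjustment over all genes tested. The background was high, since 24.6% of 17024 genes were called (11.1% higher, 13.5% lower) with a median of -0.03. The 12 called members (27.3% of 44) are close to the background, and 34.8% of mitosis genes were called lower. All 23 mitosis genes had a fold change at or below 0, and without the fifth Gfi1 OE library 20 were negative and 3 positive.

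Among replication genes, E2f2, a G1/S activator, was 27.6, 38.3 and 43.8 CPM (lowest, median, highest) in 8 Gfi1 OE libraries and 8.82, 14.5 and 19.6 CPM in 6 controls. The groups did not overlap, and E2f2 rose, with a log2 fold change and standard error of 1.46 ± 0.19 (adjusted p = 8.85e-05, edgeR). Mcm2, a subunit of the replicative helicase, was 203, 233 and 248 CPM in Gfi1 OE and 115, 176 and 204 CPM in controls. The lowest Gfi1 OE library lay just under the highest control, and Mcm2 rose by 0.60 ± 0.14 (adjusted p = 0.00559, edgeR). Neil3 was 30.9, 39.1 and 55.2 CPM in Gfi1 OE and 21.5, 26.4 and 37.3 CPM in controls. These ranges overlapped, and Neil3 rose by 0.67 ± 0.16 (adjusted p = 0.00639, edgeR). Gins2, a subunit of the helicase's GINS complex, was 15.8, 17.1 and 22.7 CPM in Gfi1 OE and 23.8, 26.5 and 29.3 CPM in controls. All Gfi1 OE libraries were below all controls, yet the call (-0.44 ± 0.15, adjusted p = 0.0435, edgeR) was lost when any of 13 libraries was left out. Without the fifth Gfi1 OE library, the one at 22.7 CPM, the call held (-0.56, adjusted p = 0.000397, edgeR).

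Of the mitosis genes that fell, Kif2c, a microtubule-depolymerising kinesin of the centromere, was 31.6, 43.9 and 55 CPM in Gfi1 OE and 56.9, 81.4 and 84.9 CPM in controls. All Gfi1 OE libraries were below all controls (-0.62 ± 0.11, adjusted p = 0.000691, edgeR). The same held for Aurkb, the kinase of the chromosomal passenger complex, at 38.7, 46.6 and 57.1 CPM in Gfi1 OE and 60.3, 70.5 and 88.2 CPM in controls. Aurkb fell as well (-0.51 ± 0.12, adjusted p = 0.00481, edgeR). Birc5 (survivin, of the same complex) was 17.5, 42.7 and 56.1 CPM in Gfi1 OE and 50.4, 68 and 88.9 CPM in controls, with ranges that overlapped and a fold change of -0.61 ± 0.16. Ccna2, the cyclin of S and G2 phase, was 54.7, 147 and 187 CPM in Gfi1 OE and 176, 234 and 289 CPM in controls. Its highest Gfi1 OE library just exceeded the lowest control (-0.63 ± 0.17, adjusted p = 0.0124, edgeR).

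The other mitosis genes called lower were Prc1, Kif20a, Kif23 and Plk1. Prc1, which bundles antiparallel microtubules, changed by -0.58 ± 0.16 (adjusted p = 0.0158), and Kif20a, a kinesin of the central spindle, by -0.57 ± 0.16 (adjusted p = 0.0195), both in edgeR. Kif23, a subunit of centralspindlin, changed by -0.77 ± 0.23 (adjusted p = 0.0240, edgeR), but this call was lost without control replicate 2 or 4, and that of Kif20a without control replicate 2. With no low-count filter, the calls of Prc1, Kif20a and Kif23 were all lost. Plk1, a kinase of mitotic entry and spindle assembly, was 19.1, 22.7 and 34.2 CPM in Gfi1 OE and 23.3, 39.8 and 45.9 CPM in controls. The ranges overlapped, and the call (-0.49 ± 0.17, adjusted p = 0.0439, edgeR) was lost when any of 10 libraries was left out. Without the fifth Gfi1 OE library the call of Plk1 held (-0.57, adjusted p = 0.0129, edgeR).

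The other marker genes of proliferation did not pass the test. Mki67, the proliferation antigen Ki-67, was 192, 838 and 1071 CPM in Gfi1 OE and 645, 820 and 1037 CPM in controls, with a fold change of 0.00 ± 0.24. Top2a, a topoisomerase that untangles chromosomes, was 410, 840 and 1057 CPM in Gfi1 OE and 767, 1059 and 1417 CPM in controls. Cdk1, the mitotic kinase, was 23.4, 119 and 143 CPM in Gfi1 OE and 116, 156 and 214 CPM in controls, and its partner Ccnb1 was 37.6, 133 and 170 CPM in Gfi1 OE and 98.9, 143 and 191 CPM in controls. In each of these the lowest Gfi1 OE library was replicate 5, and the remaining libraries overlapped with controls. Bub1, a spindle checkpoint kinase, was 7.07, 66.9 and 107 CPM in Gfi1 OE and 61, 107 and 154 CPM in controls, and Cdc20, the activator of the anaphase-promoting complex, was 76.2, 85.5 and 121 CPM in Gfi1 OE and 108, 123 and 136 CPM in controls. Both overlapped between the groups, with fold changes of -0.67 ± 0.33 for Bub1 and -0.26 ± 0.16 for Cdc20. Replication genes of the panel also overlapped. Mcm5 was 66.6, 125 and 192 CPM in Gfi1 OE and 115, 147 and 191 CPM in controls. Pcna was 52.1, 248 and 305 CPM in Gfi1 OE and 210, 232 and 263 CPM in controls. Nucleotide reductase subunit Rrm2 showed lower medians in Gfi1 OE, at 32.4, 58.8 and 106 CPM, than in controls, at 58.3, 90.7 and 140 CPM (-0.52 ± 0.23). Ccne1 was 21.8, 28.9 and 35.8 CPM in Gfi1 OE and 12.8, 24.8 and 35 CPM in controls, and E2f1 was 17, 21.3 and 44.6 CPM in Gfi1 OE and 12.1, 24 and 38.7 CPM in controls. Neither passed the test, with fold changes of 0.45 ± 0.20 for Ccne1 and 0.22 ± 0.29 for E2f1.

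Genes of the same pathways outside the 44 were counted as well, beside 11.1% of all genes called higher and 13.5% lower. In all, 22.5% of other mitosis and 27.5% of other replication genes were called, near the 24.6% of all genes. Of 40 other mitosis genes, 9 fell and 0 rose, among them Racgap1 (-0.83), the partner of Kif23, Ect2 (-1.30), its exchange factor, Cdca8 (-0.66), of the passenger complex, and the centromeric histone Cenpa (-0.78). Of 40 other replication genes, 5 rose and 6 fell, with Pold1 (1.03), Gins3 (0.61) and Dut (0.53) higher and Dbf4 (-0.64) lower. Of 18 cell cycle transcription factors, Tfdp2 (0.96) rose, and Foxm1 (-0.47), an activator of mitosis genes, and Lin54 (-0.59), the CHR-binding subunit of MuvB, fell. Of 17 cyclin-dependent kinase regulators, Ccnd1 (-1.42) and Cdk6 (-2.26) fell and 0 rose.

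The fifth Gfi1 OE library stood apart, with mitosis genes summed to 1663 CPM, against 3426 to 4347 CPM in the other 7, the highest Gfi1 (592 CPM) and the lowest Ezh2 (17.9 CPM). It also held 2687641 gene counts, against 18140316 to 94733334 in the other 7, with 71.55% of reads not aligned (3.277% to 8.25% in the others) and 68.934% of its gene, no-feature and ambiguous counts in no feature (25.231% to 33.254% in the others). The part of these library properties in its values was not tested. Without it, 14 members were called (3 higher, 11 lower), 10 of them mitosis genes, while 33.9% of 16938 genes were called (15.3% higher, 18.6% lower). Bub1 (-0.53, adjusted p = 0.0363, edgeR) and Cdc20 (-0.40, adjusted p = 0.00583, edgeR) were then among them. Markers of other cells also differed. The 6 lymphocyte markers summed to 14.5 to 37.3 CPM in Gfi1 OE and 0.334 to 2.29 CPM in controls (1 tested, Cd79a, 6.90 higher). The 10 granule neuron progenitor markers summed to 247 to 488 CPM in controls, with 4 lower in Gfi1 OE. They summed to 532 CPM in Gfi1 OE replicate 7 and to 55.2 to 152 CPM in the other 7 Gfi1 OE libraries. Replicate 7 also had the lowest Gfi1 (107 CPM) and the highest Ezh2 (84 CPM) of the Gfi1 OE libraries. Of 6 astrocyte markers, 1 was higher and 2 lower, with sums of 109 to 575 CPM in Gfi1 OE and 452 to 1242 CPM in controls. No list had a marker at 0 in every library except the neutrophil list (Ly6g). Myc itself was 381, 494 and 781 CPM in Gfi1 OE and 439, 1000 and 1454 CPM in controls. The part of these differences in the result was not tested.

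Libraries labelled WT GNP Myc Gfi1 were compared with Gfi1 OE libraries of line 19251. Genotype, cell of origin, library set and the Gfi1 level all differ between them and cannot be told apart. The titles name tumors only for WT GNP. Of 17278 genes tested, 48.7% were called (21.9% higher, 26.8% lower), and 19 of 44 members (43.2%) were called, 13 higher and 6 lower, a share under the background. Median fold changes were 0.28 over mitosis and 0.33 over replication genes, against -0.08 over all genes. Of all 44, Neil3, Ccnb2 and E2f2 had the largest changes, all lower.

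Neil3 was 0.926, 0.997, 0.488 and 0.928 CPM in WT GNP and 30.9, 39.1 and 55.2 CPM (lowest, median, highest) in Gfi1 OE libraries. Every WT GNP library was far below every Gfi1 OE library, and Neil3 had the most negative fold change of the 44 (-5.64 ± 0.23, adjusted p = 1.46e-08, edgeR). Ccnb2 was 2.54, 4.42, 2.37 and 3.48 CPM in WT GNP and 19.3, 40.6 and 63.1 CPM in Gfi1 OE. It did not overlap either (-3.72 ± 0.27, adjusted p = 4.91e-07, edgeR), while its paralog Ccnb1 was 164, 195, 198 and 196 CPM in WT GNP, within or above the Gfi1 OE range of 37.6 to 170 CPM. E2f2 was 11.9, 9.62, 9.98 and 11 CPM in WT GNP and 27.6, 38.3 and 43.8 CPM in Gfi1 OE, again without overlap (-1.85 ± 0.13, adjusted p = 4.82e-07, edgeR). Cdc20 was 54.8, 53.8, 52.9 and 57.8 CPM in WT GNP and 76.2, 85.5 and 121 CPM in Gfi1 OE. It was lower in all 4 WT GNP libraries (-0.82 ± 0.18, adjusted p = 0.00224, edgeR). Mcm2, at 152, 165, 162 and 186 CPM in WT GNP and 203, 233 and 248 CPM in Gfi1 OE, fell without overlap (-0.53 ± 0.13, adjusted p = 0.00422, edgeR). E2f1, at 12.9, 14.6, 12.3 and 15.4 CPM in WT GNP and 17, 21.3 and 44.6 CPM in Gfi1 OE, fell as well (-0.94 ± 0.29, adjusted p = 0.0173, edgeR), a call lost without WT GNP replicate 3.

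Ccne1 was 109, 82.5, 98.4 and 102 CPM in WT GNP and 21.8, 28.9 and 35.8 CPM in Gfi1 OE. The groups were well separated (1.71 ± 0.13, adjusted p = 5.35e-07, edgeR). Mcm4, a helicase subunit, was 191, 207, 216 and 238 CPM in WT GNP and 37.6, 116 and 134 CPM in Gfi1 OE, without overlap (0.93 ± 0.20, adjusted p = 0.00194, edgeR). The other genes called higher were Kif20a (0.97), Ccne2 (0.82), Tyms (0.62), Rrm2 (0.60), Birc5 (0.58), Plk1 (0.55), Prc1 (0.52), Mcm6 (0.41), Mcm7 (0.39), Rrm1 (0.34) and Aurkb (0.29). Among them, Plk1 was 31.2, 35.5, 38.9 and 41.9 CPM in WT GNP and 19.1, 22.7 and 34.2 CPM in Gfi1 OE, and Rrm2 was 84.8, 98.9, 91.7 and 112 CPM in WT GNP and 32.4, 58.8 and 106 CPM in Gfi1 OE. The remaining panel genes were not called in edgeR. Mki67 was 652, 830, 772 and 749 CPM in WT GNP, inside the Gfi1 OE range of 192 to 1071 CPM (-0.09 ± 0.28). Top2a was 932, 1150, 1053 and 1088 CPM in WT GNP and 410, 840 and 1057 CPM in Gfi1 OE (0.33 ± 0.16). Both overlapped between the groups. Cdk1 was 149, 170, 167 and 165 CPM in WT GNP, above the Gfi1 OE range of 23.4 to 143 CPM (0.54 ± 0.27), and Bub1 was 82.3, 124, 106 and 114 CPM in WT GNP and 7.07, 66.9 and 107 CPM in Gfi1 OE (0.72 ± 0.37). Mcm5 was 140, 167, 166 and 182 CPM in WT GNP, inside the Gfi1 OE range of 66.6 to 192 CPM (0.33 ± 0.17), and Pcna was 245, 300, 294 and 319 CPM in WT GNP and 52.1, 248 and 305 CPM in Gfi1 OE (0.27 ± 0.28). For Ccnb1 the fold change was 0.56 ± 0.23.

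Counts of the related lists stand beside 21.9% of all genes called higher and 26.8% lower. In all, 35% of other mitosis and 47.5% of other replication genes were called, both under the 48.7% of all genes. Of 40 other mitosis genes, 13 (32.5%) rose and 1 (2.5%) fell, with Mad2l1 (1.28), Pttg1 (1.04), Cdc25c (0.84) and Dlgap5 (0.46) as examples. Other replication genes were divided, with 10 higher and 9 lower of 40, such as Rpa1 (0.67) above and Pold1 (-1.27), Pold2 (-0.77) and Mcm10 (-0.61) below. Cell cycle transcription factors rose in 7 and fell in 3 of 18 cases, with E2f8 (1.02) and E2f3 (0.63) higher and Tfdp2 (-1.36) and Mybl2 (-0.99), the gene of B-Myb, lower. Cyclin-dependent kinase regulators rose in 8 and fell in 1 of 17, and included Cdkn1c (7.24), Ccnd1 (2.65) and Cdkn2b (2.31). The granule neuron progenitor markers summed to 1022 to 1029 CPM in WT GNP and 55.2 to 532 CPM in Gfi1 OE (3 higher, 3 lower of 10), the pericyte markers to 300 to 332 CPM in WT GNP and 39.4 to 183 CPM in Gfi1 OE (2 higher of 4). The 8 oligodendrocyte markers summed to 96 to 204 CPM in WT GNP and 212 to 507 CPM in Gfi1 OE, with 2 lower, and their part in the result was not tested. Without the fifth Gfi1 OE library, 28 members were called (22 higher, 6 lower), with 65.8% of 17066 genes called (32.2% higher, 33.5% lower). Leaving out WT GNP replicate 3 or replicate 4 reduced the 19 to 11, and the calls of Aurkb, Birc5, Ccne2, E2f1, Mcm6, Mcm7, Prc1, Rrm1 and Rrm2 were each lost without at least 1 library.

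In set 2, the question was whether Ezh2 loss changes proliferation genes in line 19568 and whether returning Ezh2 restores them. With Ezh2 KO against Cas9 (3 and 2 libraries), 5 of 44 members (11.4%) were called, and 9.11% of 17663 genes were called (5.88% higher, 3.23% lower), so the share was near the background. Mitosis genes were mostly lower, 18 of 23 with negative fold changes and a median of -0.20, against a median of 0 over all genes. Replication genes were evenly divided, with 12 positive and 9 negative and a median of 0.03.

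Ccnb2 was 30.2, 22.9 and 20.2 CPM in Ezh2 KO and 52.1 and 51.9 CPM in Cas9. All knockout libraries were below both controls (-1.18 ± 0.19, adjusted p = 0.00669, edgeR). Neil3 was 9.27, 9.82 and 9.41 CPM in Ezh2 KO and 3.09 and 2.57 CPM in Cas9. It was about as separated in the other direction (1.66 ± 0.30, adjusted p = 0.0108, edgeR). Ccne1 was 77.2, 66.1 and 57 CPM in Ezh2 KO and 40.4 and 34.6 CPM in Cas9. The groups did not overlap (0.75 ± 0.18, adjusted p = 0.0383, edgeR). E2f2 was 11.3, 10.2 and 9.84 CPM in Ezh2 KO and 17.6 and 17.3 CPM in Cas9, and Nusap1, a spindle protein, was 103, 93 and 96.4 CPM in Ezh2 KO and 131 and 131 CPM in Cas9. Both were lower in every knockout library, by -0.83 ± 0.18 (adjusted p = 0.0221) for E2f2 and -0.52 ± 0.11 (adjusted p = 0.0218) for Nusap1, in edgeR. Leaving out Cas9 replicate 2 or replicate 3, with 1 control library remaining, ended all 5 calls. With the 12 libraries as labelled, Neil3 alone was called. Leaving out 1 knockout library left 2 (replicate 2), 3 (replicate 3) or 4 (replicate 1) calls, and leaving out Ezh2 OE replicate 1 gave 10 and Ezh2 OE replicate 2 gave 3. The shares of all genes called in these fits are not given here, so these counts have no background beside them.

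The other panel genes did not pass the test. Mki67 was 861, 857 and 852 CPM in Ezh2 KO and 1036 and 1115 CPM in Cas9, lower in each knockout library (-0.43 ± 0.13, adjusted p = 0.0777, edgeR). Top2a was 1031, 994 and 1044 CPM in Ezh2 KO and 1098 and 1103 CPM in Cas9, and Ccnb1 was 202, 180 and 179 CPM in Ezh2 KO and 201 and 196 CPM in Cas9. These differences were small, at -0.20 ± 0.10 and -0.18 ± 0.11. Cdk1 was 170, 145 and 149 CPM in Ezh2 KO and 166 and 161 CPM in Cas9, Plk1 was 47.2, 38 and 37.2 CPM in Ezh2 KO and 32 and 33.3 CPM in Cas9, and Bub1 was 108, 110 and 108 CPM in Ezh2 KO and 108 and 123 CPM in Cas9. Plk1 was the one of these with higher values in every knockout library. Cdc20 was 107, 87.9 and 79.6 CPM in Ezh2 KO and 96.5 and 89.2 CPM in Cas9. Mcm2 was 185, 169 and 176 CPM in Ezh2 KO and 138 and 137 CPM in Cas9, Mcm5 was 182, 163 and 176 CPM in Ezh2 KO and 156 and 153 CPM in Cas9, and Rrm2 was 95.8, 89.1 and 94.7 CPM in Ezh2 KO and 68.1 and 71 CPM in Cas9. Each of Mcm2, Mcm5 and Rrm2 was higher in every knockout library on the CPM scale, with fold changes after TMM scaling of 0.26 ± 0.10, 0.08 ± 0.13 and 0.32 ± 0.13. Pcna was 284, 270 and 278 CPM in Ezh2 KO and 297 and 287 CPM in Cas9, and E2f1 was 15.5, 15.2 and 14.6 CPM in Ezh2 KO and 11.5 and 11.6 CPM in Cas9. Every knockout library was below both controls for Pcna (-0.17 ± 0.09) and above both for E2f1 (0.29 ± 0.17), and neither passed the test.

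In the rescue arm, several mitosis genes were lower than in Cas9, and no member was called different from Ezh2 KO. The arm rests on 2 libraries, and the description of the second (replicate 2) names only Ezh2 overexpression, whereas its title names the knockout as well. Rescue libraries compared with Ezh2 KO gave 0 called members in edgeR, where 1.21% of all genes were called. At an unadjusted p under 0.05 there were 3284 of 17663 genes (1642 of them lower) and 17 members, all lower. In edgeR 42 of 44 fold changes were negative with a median of -0.27. Limma-voom called 0 members and DESeq2 called 4 lower. Compared with Cas9 (2 and 2 libraries), 7 members (15.9%) were called, all lower, with 7.78% of genes called (5.14% higher, 2.65% lower). All 23 mitosis genes had negative fold changes there, with a median of -0.43. Ccnb2 was 14.9 and 16.7 CPM in the rescue arm, below the knockout values above and the 52.1 and 51.9 CPM of Cas9 (-1.75 ± 0.21 against Cas9, adjusted p = 0.00352, edgeR). Kinetochore motor Cenpe was 186 and 171 CPM in the rescue arm and 259 and 289 CPM in Cas9 (-0.66, adjusted p = 0.0243, edgeR), and spindle motor Kif11 was 211 and 208 CPM in the rescue arm and 312 and 319 CPM in Cas9 (-0.63, adjusted p = 0.0267, edgeR). E2f2 (9.48 and 9.57 CPM in the rescue arm, -0.91), Nusap1 (100 and 88.8 CPM, -0.51), Ccnb1 (151 and 138 CPM, -0.49) and Kif2c (55.4 and 49.7 CPM, -0.60) were the others called against Cas9. Neil3, at 6.2 and 6.53 CPM in the rescue arm, lay between the knockout and Cas9 values, and Ccne1, at 46.5 and 34.4 CPM, lay on either side of Cas9, and neither was called. With the 12 libraries as labelled, 0 members were called against Cas9. Leaving out 1 library gave 2 (rescue replicate 1), 1 (rescue replicate 2), 1 (Cas9 replicate 2), 0 (Cas9 replicate 3), 18 (Ezh2 OE replicate 1), 3 (Ezh2 OE replicate 2), 11 (Ezh2 OE replicate 3), 2 (Ezh2 KO replicate 2) or 4 (Ezh2 KO replicate 3) calls. Against Ezh2 KO, it gave 2 without Ezh2 OE replicate 1 and 1 without Ezh2 OE replicate 2. For DESeq2 and the fits with a library left out, shares of all genes called are not given here. Those member counts have no background beside them.

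The rescue values for the rest of the panel lay mostly at or below Cas9. Mki67 was 820 and 741 CPM, Top2a 901 and 897 CPM, Cdk1 131 and 117 CPM and Pcna 242 and 217 CPM in the rescue arm, each below both Cas9 libraries. Plk1 was 31.6 and 27.4 CPM, Bub1 88.2 and 94.8 CPM, Cdc20 69.9 and 61.5 CPM, Rrm2 61.8 and 56.6 CPM, Mcm5 138 and 134 CPM and E2f1 9.03 and 10.6 CPM, also below both Cas9 libraries. Mcm2, at 142 and 133 CPM, lay on either side of them.

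Ezh2 OE without knockout changed 0 members against Cas9 in edgeR (1 at an unadjusted p under 0.05, Ube2c), DESeq2 or limma-voom. In edgeR 0.00566% of genes were called, a single gene, and 498 of 17663 genes had an unadjusted p under 0.05. The fold changes of the 44 members ran from -0.18 to 0.38 with a median of -0.01. Ccnb2 was 58.1, 48.5 and 65.4 CPM in Ezh2 OE, on either side of the 52.1 and 51.9 CPM of Cas9. Neil3 (3.99, 1.78 and 1.96 CPM), Ccne1 (40.3, 31.3 and 42.9 CPM), E2f2 (14, 17.2 and 18.1 CPM) and Mki67 (904, 916 and 1078 CPM) in Ezh2 OE likewise overlapped with Cas9 or lay close to it. For Mki67 the fold change was -0.18 ± 0.13.

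Of the related lists in set 2, 4 of 17 cyclin-dependent kinase regulators rose in Ezh2 KO against Cas9 and 0 fell, beside 5.88% of all genes called higher and 3.23% lower: Ccnd2 (2.84, adjusted p = 3.27e-05, edgeR), Cdkn1c (4.71), Ccnd3 (0.82) and Ccnd1 (0.71). Of other mitosis genes, Smc4 (-0.61), Kif18a (-0.42) and Ndc80 (-0.46) fell and 0 of 40 rose, of other replication genes Mcm8 (-0.49) fell and 0 of 40 rose, and of transcription factors E2f6 (0.53) and E2f3 (0.36) rose and 0 of 18 fell. In the rescue arm against Cas9, 5.14% of all genes were called higher and 2.65% lower. There 8 other mitosis genes (20%) fell, including Smc4 (-0.62), Ncapg (-0.55), Ttk (-0.70) and Cep55 (-0.68). So did 4 other replication genes (10%), Mcm8 (-0.53), Orc1 (-0.59), Dbf4 (-0.49) and Cdc45 (-0.44). Ccnd2 (1.91), Cdkn2b (2.36) and Cdkn1c (3.93) rose and Tfdp1 (-0.38) fell there. Against Ezh2 KO, where 1.21% of all genes were called, the rescue arm had E2f6 (-0.71) and Ccnd2 (-0.94) lower and Cdkn2b (1.46) higher. Of other mitosis or replication genes, 0 were called.

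Some lists of cell-type markers also differed between Ezh2 KO and Cas9, and others overlapped. The granule neuron progenitor markers, among which Ccnd2 is also counted, summed to 1121 to 1230 CPM in Ezh2 KO and 529 to 556 CPM in Cas9, with Ccnd2, Mfap4 and Pax6 called higher of 8 tested. The pericyte markers summed to 352 to 401 CPM in Ezh2 KO and 254 to 284 CPM in Cas9 (0 of 4 called), and the endothelium markers to 79.8 to 115 CPM in Ezh2 KO and 57.7 to 76.1 CPM in Cas9 (1 of 7 higher). The 6 lymphocyte markers summed to 5.38 to 5.62 CPM in Ezh2 KO and 2.09 to 2.57 CPM in Cas9 (0 of 2 tested called). Neutrophil markers were lower, at 0.127 to 0.382 CPM in Ezh2 KO and 0.579 to 1.56 CPM in Cas9 (0 of 2 tested called). Sums overlapped for microglia markers (1 of 10 higher). They also overlapped for oligodendrocyte, astrocyte, cortical neuron and red blood cell markers, with none called. In the rescue arm, progenitor markers summed to 850 to 1010 CPM (3 of 8 tested higher than in Cas9, Atoh1 at 0 in both groups), endothelium markers to 133 to 146 CPM (2 of 7 higher), and microglia markers to 202 to 226 CPM, against 140 to 156 CPM in Cas9 (1 of 10 higher). Pericyte, oligodendrocyte, lymphocyte and red blood cell sums were also above Cas9 without overlap, and astrocyte, cortical neuron and neutrophil sums overlapped. The part of these marker differences in the result was not tested.

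**Figure D3:**
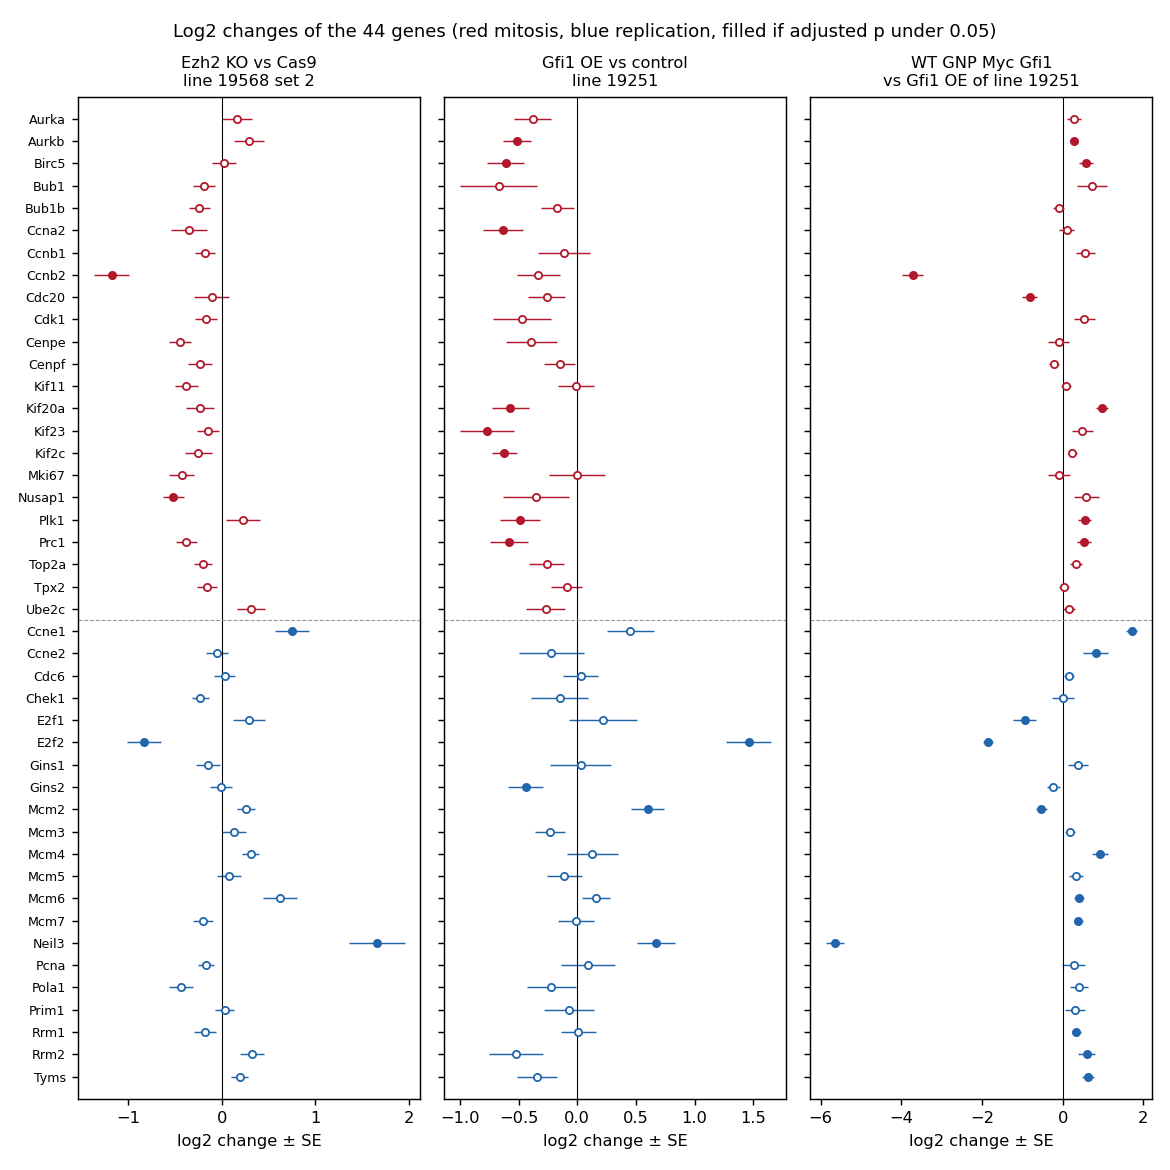
Log2 fold changes with standard errors of the 44 members in 3 comparisons, one to a panel with its own axis, mitosis genes in red above replication genes in blue, filled where the adjusted p was under 0.05. Mitosis genes lie mostly below 0 in Ezh2 KO against Cas9 of set 2 (median -0.20) and in Gfi1 OE against control (median -0.38), and Neil3 lies at -5.64 in WT GNP Myc Gfi1 against Gfi1 OE.

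In set 1, Ezh2 KO was compared with Cas9 over the 3 lines together. In edgeR 0 of 44 members were called, where 0.561% of 17635 genes were called, and DESeq2 and limma-voom called 0 members. At an unadjusted p under 0.05 in edgeR there were 1459 of 17635 genes and 0 of the 44 members. The median fold change in edgeR was 0.09, with 36 positive and 8 negative. Leaving out the host-rich Cas9 library turned this round: 13 were positive and 31 negative with a median of -0.09, again 0 were called, and 1.43% of 17938 genes were. At an unadjusted p under 0.05 there were then 3 members, all lower, and 2499 of 17938 genes, 1115 of them lower. The members were E2f2 (-0.72, adjusted p = 0.247), Ccnb2 (-0.38, adjusted p = 0.309) and Cdc20 (-0.32, adjusted p = 0.309), in edgeR. A test of whether the effect differed between lines called 0 members with the library (smallest adjusted p = 0.530, edgeR, 0.0162% of genes called) and 0 without it (smallest adjusted p = 0.318, edgeR, 0.105% called).

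By line, 0 members were called in each, in edgeR with or without the library and in DESeq2 and limma-voom with it. In line 19251 all 44 fold changes were positive with a median of 0.62. There 1 member had an unadjusted p under 0.05, where 3141 of 18514 genes did (0.259% called). Without the library 25 were positive and 19 negative with a median of 0.04. Then 3 members had an unadjusted p under 0.05, where 2601 of 19072 genes did (0.414% called). In line 19554, 11 were positive and 33 negative with a median of -0.15. There 0 members had an unadjusted p under 0.05, where 1726 of 18514 genes did (0.481% called). Without the library 10 were positive and 34 negative. Then 3 members, all lower, had an unadjusted p under 0.05, where 3015 of 19072 genes did (2.1% called). In line 19568, all 23 mitosis genes were negative with a median of -0.20, and replication genes were 11 positive and 10 negative with a median of 0.02. There 0 members had an unadjusted p under 0.05, where 580 of 18514 genes did (0.027% called). The 19251 library enters the spread shared by the 3 lines in 1 fit. Without it, 5 members in line 19568 had an unadjusted p under 0.05, where 1080 of 19072 genes did (0.105% called).

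In line 19568, Ccnb2 was 27.5, 32.2 and 35.5 CPM in Ezh2 KO and 57.5, 47 and 60.4 CPM in Cas9. The groups did not overlap (-0.80 ± 0.26 without the 19251 library, adjusted p = 0.613, edgeR). Neil3 was 14.7, 14 and 18.1 CPM in Ezh2 KO and 12.6, 4.02 and 2.1 CPM in Cas9. Each knockout library was above each control (1.31 ± 0.50, adjusted p = 0.748, edgeR). Ccne1, at 69.3, 63.1 and 75.1 CPM in Ezh2 KO and 52, 46 and 49.1 CPM in Cas9, was also higher in every knockout library. Cdc20, at 92.5, 78.4 and 111 CPM in Ezh2 KO and 152, 109 and 145 CPM in Cas9, overlapped at 1 library, and Ccna2 did not overlap, at 182, 166 and 188 CPM in Ezh2 KO and 259, 213 and 275 CPM in Cas9. Progenitor markers summed to 753 to 1131 CPM in Ezh2 KO and 437 to 564 CPM in Cas9 of this line, and their part was not tested. The sums of the other marker lists overlapped.

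Since set 1 and set 2 share no library, their Ezh2 KO effects in line 19568 could be set side by side (set 1 without the 19251 library). Of the 44 members, 34 had the same sign in both sets, 25 negative and 9 positive. Of 23 mitosis genes, 18 were negative in both and 0 positive in both. Of 21 replication genes, 7 were negative in both and 9 positive in both. Ccnb2 was -0.80 in set 1 and -1.18 in set 2, and Neil3 was 1.31 in set 1 and 1.66 in set 2. No p is given for these counts.

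The panel genes in the other lines of set 1 mostly overlapped between the arms once the host-rich library was set aside. In line 19251, Mki67 was 641, 1169 and 641 CPM in Ezh2 KO and 2.53, 478 and 551 CPM in Cas9, the first Cas9 value being the host-rich library. Top2a was 1144, 1290 and 879 CPM in Ezh2 KO and 3.67, 1275 and 1183 CPM in Cas9. Ccnb1 was 243, 254 and 250 CPM in Ezh2 KO and 0.832, 244 and 179 CPM in Cas9. Only Mki67 of these was above both remaining controls in every knockout library. Cdk1 was 224, 247 and 191 CPM in Ezh2 KO and 0.568, 236 and 172 CPM in Cas9. Bub1 was 133, 131 and 96 CPM in Ezh2 KO and 0.151, 103 and 89.4 CPM in Cas9. Plk1 was 28.4, 40.8 and 40.4 CPM in Ezh2 KO and 0.757, 30.7 and 27.2 CPM in Cas9. Each overlapped with the remaining controls. Cdc20 was 131, 127 and 154 CPM in Ezh2 KO and 4.58, 192 and 107 CPM in Cas9, Mcm2 was 178, 147 and 164 CPM in Ezh2 KO and 4.92, 295 and 150 CPM in Cas9, and Mcm5 was 174, 177 and 162 CPM in Ezh2 KO and 5.41, 237 and 132 CPM in Cas9. The knockout values lay between the remaining controls, or nearly so. Pcna was 381, 346 and 274 CPM in Ezh2 KO and 18.2, 219 and 275 CPM in Cas9, and Rrm2 was 136, 92 and 115 CPM in Ezh2 KO and 0.605, 156 and 73.1 CPM in Cas9. Ccne1 was 31.7, 28.8 and 47.9 CPM in Ezh2 KO and 7.45, 25.5 and 23.2 CPM in Cas9, E2f1 was 21.2, 19.8 and 24.9 CPM in Ezh2 KO and 2.19, 19.8 and 15.3 CPM in Cas9, and E2f2 was 10.6, 13.7 and 21.4 CPM in Ezh2 KO and 0.832, 17.1 and 19.2 CPM in Cas9. Of these 5, Ccne1 was above both remaining controls in each knockout library.

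In line 19554, Mki67 was 677, 609 and 608 CPM in Ezh2 KO and 619, 573 and 942 CPM in Cas9, and Top2a was 1060, 1106 and 809 CPM in Ezh2 KO and 1090, 863 and 1279 CPM in Cas9. E2f2 was 13.5, 17.1 and 9.18 CPM in Ezh2 KO and 10.4, 19.4 and 52.2 CPM in Cas9, and E2f1 was 43.1, 52.4 and 10 CPM in Ezh2 KO and 37.9, 33.3 and 18.7 CPM in Cas9. All of these overlapped, with the third Cas9 library high for E2f2 and Mki67. Cdk1 was 171, 228 and 154 CPM in Ezh2 KO and 219, 180 and 244 CPM in Cas9, Ccnb1 was 235, 285 and 190 CPM in Ezh2 KO and 300, 238 and 247 CPM in Cas9, and Pcna was 284, 306 and 140 CPM in Ezh2 KO and 378, 298 and 450 CPM in Cas9. Ccne1 was 38.7, 55.1 and 30.3 CPM in Ezh2 KO and 45.7, 45 and 78.1 CPM in Cas9. The third knockout library was the lowest of its group for each of these 4 genes. Rrm2 was 143, 172 and 115 CPM in Ezh2 KO and 105, 93.5 and 137 CPM in Cas9, Bub1 was 135, 142 and 56.2 CPM in Ezh2 KO and 115, 104 and 131 CPM in Cas9, and Plk1 was 42.3, 53.3 and 34.2 CPM in Ezh2 KO and 40.1, 35.1 and 39.5 CPM in Cas9. Cdc20 was 133, 190 and 128 CPM in Ezh2 KO and 209, 189 and 136 CPM in Cas9, Mcm2 was 188, 192 and 169 CPM in Ezh2 KO and 198, 150 and 207 CPM in Cas9, and Mcm5 was 155, 192 and 187 CPM in Ezh2 KO and 197, 144 and 257 CPM in Cas9. None was separated between the arms. Outside the members, the cyclin gene Ccnd2 rose by 4.29 ± 0.71 in this line's knockout (adjusted p = 0.0139, edgeR).

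For line 19568 in set 1, the panel genes not given above overlapped between the arms. Mki67 was 701, 509 and 711 CPM in Ezh2 KO and 663, 535 and 795 CPM in Cas9, and Top2a was 981, 853 and 884 CPM in Ezh2 KO and 928, 860 and 1041 CPM in Cas9. Ccnb1 was 224, 196 and 198 CPM in Ezh2 KO and 296, 203 and 257 CPM in Cas9, Cdk1 was 159, 135 and 145 CPM in Ezh2 KO and 203, 155 and 166 CPM in Cas9, and Bub1 was 103, 82.1 and 110 CPM in Ezh2 KO and 111, 103 and 114 CPM in Cas9. Knockout values tended to be the lower ones in these 3 genes. Plk1 was 36, 22 and 40.4 CPM in Ezh2 KO and 33.4, 28 and 40.4 CPM in Cas9, Rrm2 was 81.2, 70.6 and 93.1 CPM in Ezh2 KO and 102, 75 and 85 CPM in Cas9, and Pcna was 324, 279 and 281 CPM in Ezh2 KO and 332, 319 and 312 CPM in Cas9. Mcm2 was 167, 137 and 180 CPM in Ezh2 KO and 154, 128 and 141 CPM in Cas9, and Mcm5 was 176, 146 and 207 CPM in Ezh2 KO and 183, 160 and 198 CPM in Cas9. E2f2 was 10.1, 7.77 and 10.3 CPM in Ezh2 KO and 10.3, 15.3 and 22 CPM in Cas9, where the arms met at 10.3 CPM, and E2f1 was 10.6, 7.03 and 16.5 CPM in Ezh2 KO and 9.85, 6.68 and 9.42 CPM in Cas9.

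Few members were called between the lines. With all libraries, 0 were called in edgeR in any of 6 contrasts between lines within an arm. At an unadjusted p under 0.05 there were 0 to 3 members, beside 1184 to 5081 of 18514 genes. For line 19568 against line 19251 in Cas9, 3.01% of genes were called. The share was 3.46% for 19568 against 19554 and 0.292% for 19554 against 19251. In Ezh2 KO the same contrasts gave 2.34%, 3.01% and 0.0324%. DESeq2 called 0 to 2 members in the 6 contrasts and limma-voom 0 to 1. Without the host-rich library, 2 members (4.55% of 44) were called in each of 3 contrasts, a share under the background of all genes in each. In the other contrasts 0 were called, where 1.05% (19554 against 19251, Cas9), 8.77% (19568 against 19554, Ezh2 KO) and 0.304% (19554 against 19251, Ezh2 KO) of genes were called. Among Cas9 libraries, Ccne1 (1.05 ± 0.30, adjusted p = 0.0428, edgeR) and Mcm4 (0.83 ± 0.21, adjusted p = 0.0304, edgeR) were higher in line 19568 than in line 19251 (background 8.49%, 4.77% higher and 3.72% lower). Between line 19568 and line 19554, E2f1 (-1.80 ± 0.50, adjusted p = 0.0316, edgeR) and Neil3 (-2.18 ± 0.52, adjusted p = 0.0158, edgeR) were lower in line 19568 (background 12.2%, 7.07% higher and 5.1% lower). Among Ezh2 KO libraries, Ccne1 (1.06 ± 0.26, adjusted p = 0.0263, edgeR) and Mcm6 (0.74 ± 0.18, adjusted p = 0.0254, edgeR) were higher in line 19568 than in line 19251 (background 6.28%, 3.76% higher and 2.52% lower). Leaving out Cas9 replicate 2 of line 19251 gave 2 called members between lines 19568 and 19251 and 2 between lines 19554 and 19251, leaving out its replicate 3 gave 1 between lines 19554 and 19251, and leaving out Cas9 replicate 3 of line 19554 gave 1 between lines 19568 and 19251. For these left-out replicates and for DESeq2 and limma-voom, shares of all genes called are not given here. The contrasts share libraries with the Ezh2 KO comparisons and with each other.

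The balance of both programs was described as the mean log2(CPM + 1) of the mitosis genes minus that of the replication genes, used only to set libraries beside each other, since CPM is not per length. It was lower in Ezh2 KO of line 19568 in both sets. In set 1 it was 0.56 ± 0.04 in Ezh2 KO and 0.87 ± 0.13 in Cas9 (SD, n = 3 each), and in set 2 it was 0.68 ± 0.07 in Ezh2 KO (n = 3) and 0.99 ± 0.06 in Cas9 (n = 2). The ranges did not overlap in either, 0.51 to 0.60 against 0.75 to 1.01 and 0.63 to 0.76 against 0.95 to 1.03. The rescue arm, at 0.68 ± 0.04 (n = 2), differed by 0.00 from Ezh2 KO, but with medians over members in place of means it was 0.32 higher. Ezh2 OE was at 0.99 ± 0.06 (n = 3), a difference of 0.01 from Cas9 (0.04 with medians). With medians, Ezh2 KO minus Cas9 was -0.29 in set 1 and -0.55 in set 2. In Gfi1 OE the balance was 0.37 ± 0.14 (n = 8, range 0.12 to 0.54), all below the control range of 0.67 to 0.91 (0.83 ± 0.09, n = 6), a difference of -0.46 (-0.30 with medians). WT GNP Myc Gfi1 libraries lay at 0.49 ± 0.08 (n = 4, range 0.39 to 0.58), overlapping with Gfi1 OE, and their difference from Gfi1 OE turned from 0.11 with means to -0.23 with medians. In line 19554 the balance was 0.65 ± 0.07 in Ezh2 KO and 0.60 ± 0.01 in Cas9 (n = 3 each), a difference of 0.05 that turned to -0.15 with medians. For line 19251 it was 0.81 ± 0.13 in Ezh2 KO, against 0.80 and 0.79 in the Cas9 libraries other than the host-rich one, which was at -1.17. These values were taken after the data had been seen and carry no test.

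**Figure D4:**
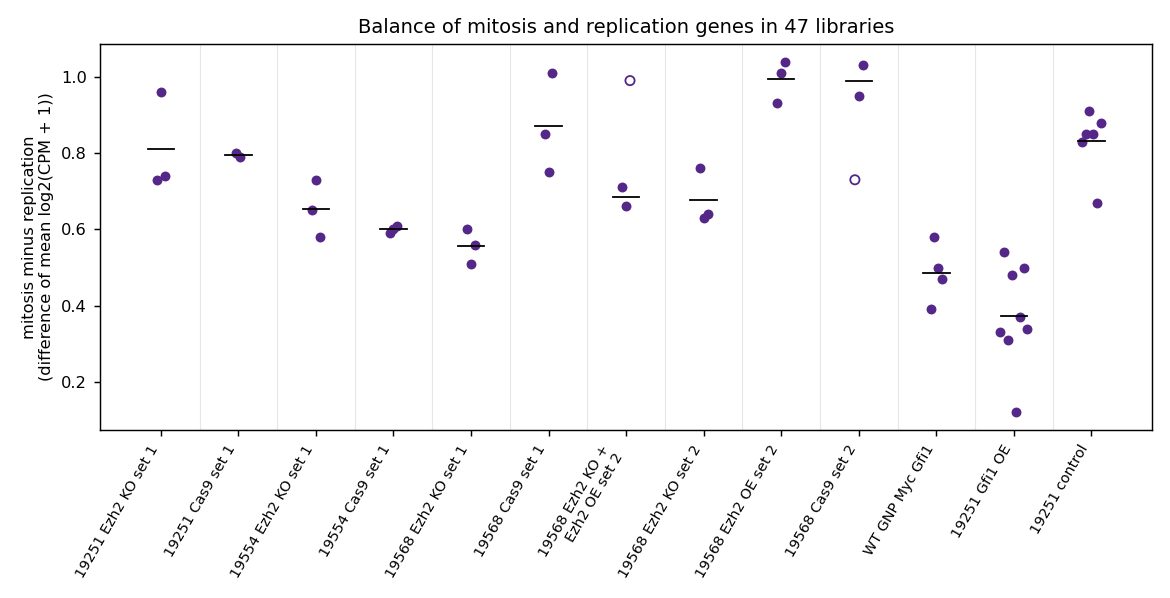
Mean log2(CPM + 1) of mitosis genes minus that of replication genes in 47 libraries by group, with bars at group means and open circles for the 2 set 2 libraries left out of the comparisons. Ezh2 KO of line 19568 lies below Cas9 in set 1 (0.51 to 0.60 against 0.75 to 1.01) and in set 2 (0.63 to 0.76 against 0.95 to 1.03), and Gfi1 OE lies at 0.12 to 0.54 against 0.67 to 0.91 in its controls.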

How the data were processed

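Total RNA of 48 libraries was sequenced with a stranded paired-end protocol, per the labels' protocols. The deposited files hold whole-number counts of reads per gene symbol, one file for each library. The submitters' processing notes name CASAVA 1.7, STAR, BWA, HTSeq, limma, R 3.2.3 and the build mm9. The order of these steps, the annotation and the strand setting of the counting are not given in the sources used here. Rows that name no gene were set aside. Reads in no feature made up 24.862% to 68.934% and ambiguous reads 0.59% to 2.375% of the gene, no-feature and ambiguous counts of a library.

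Library groups were taken from the labels. In the second set, a labelled Cas9 library and a labelled Ezh2 KO + Ezh2 OE library were left out because the numbers in their titles and files contradict each other. Since each of the 8 Gfi1 OE titles has the same replicate number, these libraries were numbered in accession order. CPM were computed on the gene count total. Differences were tested with edgeR 4.0.16 in R 4.3.3 (TMM scaling, filterByExpr, quasi-likelihood F-test, Benjamini-Hochberg adjustment over all genes tested, adjusted p under 0.05). The 18 libraries of set 1 and the 10 used of set 2 were each fitted together, so their groups share 1 estimate of the spread. In line 19568 of set 1, deviations of Ezh2 KO and Cas9 libraries with the same replicate number in their titles had correlations of 0.17, 0.40 and 0.14. Libraries with different numbers had -0.32 to 0.23, so the numbers were not shown to pair the libraries. A block for the number called 0 members there, as the unblocked fit did. Errors of fold changes are standard errors recovered from the F statistic. The scripts were tested on simulated data.

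The members and lists were chosen with earlier results of these data known. In each comparison a panel of 14 members was named, together with up to 10 called members in each direction by smallest p and up to 4 called genes of each related list. Other genes named were chosen after their values were seen. Alternatives were RLE size factors, library totals without scaling factors, DESeq2 1.42.0, limma-voom (limma 3.58.1), no low-count filter, a minimum mean of 1 CPM, a block for the replicate number, all 12 libraries of set 2 as labelled, each line fitted alone and each library left out in turn. For levels they were a pseudocount of 0.1 CPM in place of 1 CPM, TMM-scaled library sizes and medians over members. The alternatives for the balance of mitosis and replication genes were chosen after seeing the data.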

Additional observations from a re-analysis of the deposited data

Results flagged for a closer look

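A library was picked out where its gap to the nearest of the others, divided by the range of its group, exceeded Dixon's 95% critical value. Chance does this for about 1 in 20 groups of values. Only the Gfi1 OE and control libraries of line 19251 and the WT GNP Myc Gfi1 libraries were examined in this way. The other groups hold fewer libraries and were not examined, and the host-rich library is in one of them. Of 141 group values examined, 27 were picked out, and 18 of them were in Gfi1 OE replicate 5 of line 19251. Its mean log2(CPM + 1) was 5.47 over mitosis genes, against 6.48 to 6.91 in the other 7 Gfi1 OE libraries, and 5.35 over replication genes, against 6.15 to 6.41.

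Most of the cyclins and mitotic genes picked out were low in that library. Mki67 was 192 CPM there and 768 to 1071 CPM in the other Gfi1 OE libraries, Top2a was 410 CPM and 794 to 1057 CPM in the others, Ccna2 54.7 CPM and 135 to 187 CPM, Ccnb1 37.6 CPM and 113 to 170 CPM, and Cdk1 23.4 CPM and 107 to 143 CPM. The motor and spindle genes were low as well: Cenpe was 45.4 CPM there and 159 to 223 CPM in the others, Kif11 147 CPM and 214 to 263 CPM, Kif20a 48.7 CPM and 92.9 to 127 CPM, and Prc1 33.5 CPM and 70.7 to 103 CPM. Of replication genes, Mcm4 was 37.6 CPM there and 107 to 134 CPM in the others, Mcm6 152 CPM and 261 to 314 CPM, Pcna 52.1 CPM and 240 to 305 CPM, Pola1 43.2 CPM and 120 to 182 CPM, Prim1 17.1 CPM and 70.5 to 82.5 CPM, and Ccne2 6.33 CPM and 43.1 to 55 CPM. Gins2 was the exception, at 22.7 CPM there and 15.8 to 18.2 CPM in the others.

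The next most frequent was replicate 1 of the libraries labelled WT GNP Myc Gfi1, which was the lowest of its 4 for 5 genes. Ccnb1 was 164 CPM there and 195 to 198 CPM in the other 3, Kif11 209 CPM and 255 to 260 CPM, Kif20a 178 CPM and 209 to 211 CPM, Rrm1 227 CPM and 271 to 278 CPM, and Gins1 24.8 CPM and 32.8 to 33.9 CPM. Neil3 was lowest in replicate 3 of this group, at 0.488 CPM, against 0.926 to 0.997 CPM. Mcm3 was highest in Gfi1 OE replicate 7, at 134 CPM, against 88.6 to 105 CPM in the others. Among controls of line 19251, Ccne2 was 75 CPM in replicate 1 and 45.5 to 55.8 CPM in the others, and the balance of mitosis minus replication genes was 0.67 in replicate 5 and 0.83 to 0.91 in the others.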

How the results depend on the processing

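Of 127 alternatives for counts of called members and for the library level, 108 were kept. For a count this meant within 1.5 times its reported value, and for the level within the median SD of its groups. A reported 0 that stayed 0 was counted as kept, and the reported counts of set 1 and of Ezh2 OE were all 0. Of the values for single genes and for the balance, 292 were kept, 45 lost the call, 6 gained it, 4 moved and 1 reversed. A single gene was kept if its direction and its side of the threshold stayed the same. A balance difference was kept if it stayed within the pooled SD of the groups compared, whatever its sign. It counted as reversed only if its sign changed and the reported difference exceeded that SD. With 0 called members in each contrast between lines, DESeq2 gave 2 for line 19568 against line 19251 in Cas9, 1 for line 19568 against line 19554 in Cas9, 1 for line 19554 against line 19251 in Cas9 and 1 for line 19568 against line 19251 in Ezh2 KO. In Cas9, limma-voom gave 1 for line 19568 against line 19251, and a minimum mean of 1 CPM gave 1 for it and 1 for line 19554 against line 19251.

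In set 2, DESeq2 called 12 members in Ezh2 KO against Cas9 (4 higher, 8 lower), 4 in Ezh2 KO + Ezh2 OE against Ezh2 KO and 21 against Cas9, where edgeR called 5, 0 and 7. With no low-count filter these counts were 8, 9 and 19, with library totals Ezh2 KO against Cas9 gave 7 (4 higher, 3 lower) and Ezh2 KO + Ezh2 OE against Ezh2 KO gave 1, and with the 12 libraries as labelled Ezh2 KO against Cas9 gave 1 and Ezh2 KO + Ezh2 OE against Cas9 gave 0. For WT GNP Myc Gfi1 against Gfi1 OE, no low-count filter gave 11 in place of 19. The cause was not tested. The shares of all genes called under these settings are not given here, so these counts are not set against a background. A block for the replicate number gave 2 calls in Ezh2 KO against Cas9 and 1 in Ezh2 KO + Ezh2 OE against Cas9 of set 2. It changed no other count. In set 1, deviations of same-numbered libraries had correlations of -0.15, -0.03 and -0.19 for line 19251 and of 0.09, 0.06 and 0.25 for line 19554. Set 2 gave -0.19 and -0.45 for Ezh2 KO with Cas9, -0.42 and 0.38 for Ezh2 OE with Cas9, 0.42 and 0.00 for Ezh2 KO + Ezh2 OE with Ezh2 KO, and -0.56, 0.12 and -0.59 for Ezh2 OE with Ezh2 KO. These libraries share only a number. No paired analysis was possible for the Gfi1 comparisons because their libraries carry no shared numbers in the labels.

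With 1 library left out, shares of all genes called are given only for the host-rich library and Gfi1 OE replicate 5. Leaving out 1 library gave 0 to 2 calls for the contrasts of line 19568 with lines 19251 and 19554 in Cas9, line 19554 with line 19251 in Cas9 and line 19568 with line 19251 in Ezh2 KO. It gave 0 for the other set 1 results, 0 to 10 for Ezh2 KO against Cas9 in set 2, 0 for Ezh2 OE, 0 to 2 for Ezh2 KO + Ezh2 OE against Ezh2 KO, 0 to 18 for it against Cas9, 9 to 14 for Gfi1 OE and 11 to 28 for WT GNP Myc Gfi1. The called genes that kept their call under every alternative other than a left-out library were 1 of 5 in Ezh2 KO of set 2 (Neil3), 0 of 7 in the rescue arm against Cas9, 7 of 12 in Gfi1 OE and 11 of 19 in WT GNP Myc Gfi1. Among these alternatives, Ccnb2 lost its call in both set 2 comparisons only with the 12 libraries as labelled. That setting includes the libraries of uncertain label. With medians over members, the balance of line 19554 was -0.15 (Ezh2 KO minus Cas9) in place of 0.05, and the differences elsewhere were -0.55 in Ezh2 KO of set 2, 0.32 in Ezh2 KO + Ezh2 OE minus Ezh2 KO, -0.30 in Gfi1 OE and -0.23 in WT GNP Myc Gfi1. Some settings moved the median fold change of all genes: to -0.14 with library totals and 0.13 with no filter in Gfi1 OE (-0.03 as reported), to 0.07 with library totals in line 19251 of set 1 (-0.08) and to -0.46 with no filter in WT GNP Myc Gfi1 (-0.08). The library level of the 44 genes lay at 6.59 to 6.75 under its alternatives. The shallowest library, Gfi1 OE replicate 5, held 2687641 counts.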

Other observations

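The set 2 libraries left out of the comparisons had these values. The library labelled Cas9 replicate 1 held 5128 CPM of Ezh2, a balance of mitosis minus replication genes of 0.73, 13.5 CPM of Ccnb2 and 4.05 CPM of Neil3. The library labelled Ezh2 KO + Ezh2 OE replicate 3 held 101 CPM of Ezh2, a balance of 0.99, 57.2 CPM of Ccnb2 and 3.69 CPM of Neil3. Neither was placed in another group.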
